A study of Mus musculus with 10 samples.

Results

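Interferon-stimulated genes are the genes that cells switch on when an interferon, a cytokine of the antiviral and antimicrobial defence, reaches its receptor. A set of 40 such genes was followed in livers of fasted mice with and without the macroH2A histone variants, 28 of them known chiefly as targets of type I interferon and 12 known chiefly as targets of interferon-gamma. They were found by gene symbol among the probe sets of the array. A gene counted as measured on its own where a probe set carried its symbol and no other, and a gene with several such probe sets was represented by the one with the highest mean over all arrays. This gave 36 of the 40 genes, of 22180 genes that the array measures in this way, 25 of them type I targets and 11 of them interferon-gamma targets. Of the remaining genes, 3 lay only on probe sets shared with a neighbouring or near-identical gene (Oas1a with Oas1g, Dtx3l with Parp9, and Gbp2 with Gbp2b). Ifi44 was on no named probe set and was not analysed here.

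MacroH2A1 and macroH2A2 are variants of histone H2A with a large extra domain outside the nucleosome core, and the study compared livers that lack both with wild-type livers. All 10 samples were of liver from male mice of the strain 129/S6 (taconic), aged 2 months and fasted overnight for about 16 h. There were 5 wild-type and 5 macroH2A1/2 double knockout samples, each on 1 array. The labels state neither how the knockout alleles were made nor, outright, that every sample is a different mouse, so p-values measure the spread between these samples, which may be technical in part. Levels are log2 expression values per probe set as deposited, and a difference is double knockout minus wild type on that scale, so that 1 unit is a doubling.

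Type I interferons, which include interferon-alpha and interferon-beta, act through the receptor made of Ifnar1 and Ifnar2 and the kinases Jak1 and Tyk2. These phosphorylate Stat2, which joins Irf9 in the complex ISGF3, and ISGF3 binds a DNA element called the ISRE. Interferon-gamma acts through Ifngr1 and Ifngr2, Jak1 and Jak2, and its signal reaches a shorter palindromic element called GAS, with Irf1 among the first genes induced. The liver meets microbial products from the gut by way of the portal vein, and hepatocytes as well as its resident macrophages, the Kupffer cells, respond to interferons.

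Promoter sequences were read for both classes of targets. Windows from 250 bases before to 50 bases after an annotated start were matched by symbol for 32 of the 40 genes in the RefSeq promoter table of the build GRCm38.p6. The ISRE core was searched as GAAA, any 2 bases and GAAA again, on both strands, and the GAS element as TTCNNNGAA, which reads the same on both strands. An ISRE core was in the window of 17 of 32 genes (53.1%), 10 of 20 type I targets and 7 of 12 interferon-gamma targets, against 3.99% of the 27025 genes in the table. A GAS match was in 9 of 32 (28.1%), 4 of 20 type I targets and 5 of 12 interferon-gamma targets, against 9.55% of the genes in the table. A match is a description of the letters, not a bound site. The 7 sequences that follow were chosen to show 3 arrangements: ISRE cores alone (Isg15, Ifit1 and Rsad2), a GAS element alone (Irf1), and both (Gbp7, Irgm2 and Igtp). Each is the 250 bases before the start, 5′ to 3′ on the gene's strand, with the matches in capitals; overlapping matches run together.
Isg15: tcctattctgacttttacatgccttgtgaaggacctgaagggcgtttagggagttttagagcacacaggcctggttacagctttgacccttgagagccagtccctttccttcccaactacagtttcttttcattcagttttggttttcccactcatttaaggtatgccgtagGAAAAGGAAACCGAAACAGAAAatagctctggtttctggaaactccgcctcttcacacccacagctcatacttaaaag
Ifit1: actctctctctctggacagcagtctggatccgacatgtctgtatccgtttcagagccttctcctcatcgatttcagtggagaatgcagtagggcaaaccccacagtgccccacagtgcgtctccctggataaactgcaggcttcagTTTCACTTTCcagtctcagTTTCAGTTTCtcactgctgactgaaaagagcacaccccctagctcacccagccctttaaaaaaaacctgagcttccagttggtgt
Rsad2: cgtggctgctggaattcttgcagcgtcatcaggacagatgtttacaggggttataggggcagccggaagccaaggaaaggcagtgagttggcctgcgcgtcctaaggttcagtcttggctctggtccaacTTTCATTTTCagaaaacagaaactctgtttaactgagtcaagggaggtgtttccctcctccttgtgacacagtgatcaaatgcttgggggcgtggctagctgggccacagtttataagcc
Irf1: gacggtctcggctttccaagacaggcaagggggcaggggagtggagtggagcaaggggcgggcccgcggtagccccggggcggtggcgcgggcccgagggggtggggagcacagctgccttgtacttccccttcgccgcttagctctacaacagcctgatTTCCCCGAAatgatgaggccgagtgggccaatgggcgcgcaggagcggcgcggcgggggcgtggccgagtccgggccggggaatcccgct
Gbp7: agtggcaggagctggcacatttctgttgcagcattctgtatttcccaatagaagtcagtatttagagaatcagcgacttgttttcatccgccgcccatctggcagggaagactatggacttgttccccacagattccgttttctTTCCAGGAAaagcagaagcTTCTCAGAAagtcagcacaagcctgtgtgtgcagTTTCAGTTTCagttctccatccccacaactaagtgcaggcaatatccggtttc
Irgm2: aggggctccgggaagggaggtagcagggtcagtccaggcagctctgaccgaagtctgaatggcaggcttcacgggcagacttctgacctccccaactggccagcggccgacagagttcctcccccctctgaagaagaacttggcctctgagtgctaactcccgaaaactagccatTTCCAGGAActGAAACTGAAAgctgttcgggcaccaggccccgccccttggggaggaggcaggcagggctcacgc
Igtp: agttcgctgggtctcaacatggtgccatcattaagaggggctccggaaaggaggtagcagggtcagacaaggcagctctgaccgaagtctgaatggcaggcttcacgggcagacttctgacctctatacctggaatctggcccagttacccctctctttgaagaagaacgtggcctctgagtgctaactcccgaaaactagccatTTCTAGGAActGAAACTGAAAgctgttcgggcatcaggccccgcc

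The windows lie at chr4:156200819-156201068 on the minus strand for Isg15, chr19:34640639-34640888 on the plus strand for Ifit1 and chr12:26456453-26456702 on the minus strand for Rsad2. They lie at chr11:53769764-53770013 for Irf1, chr3:142530086-142530335 for Gbp7, chr11:58214727-58214976 for Irgm2 and chr11:58199306-58199555 for Igtp, all on the plus strand. In Isg15 the ISRE cores began 78, 72 and 66 bases before the start, and in Ifit1, where they read on the opposite strand, they lay 104 and 85 bases before it. In Irgm2 the GAS match began 75 bases before the start and the ISRE core 64, and in Igtp they began 45 and 34 bases before it, in the same order and with the same spacing. The longest run of letters that the Irgm2 and Igtp windows share is 55 bases, and no other pair of the 7 shares more than 13.

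None of the 36 interferon-stimulated genes passed the test between genotypes. In limma's fit over 25335 probe sets with a gene symbol, 0 of 36 had a Benjamini-Hochberg adjusted p under 0.05, where 0.884% of all probe sets were called (0.332% higher and 0.553% lower), and the adjusted p-values of the members ran from 0.118 for Gbp7 to 0.987 for Gbp3. At an unadjusted p under 0.05 there were 7 members (19.4%), 2 with a higher and 5 with a lower mean in the double knockout, against 15.1% of all probe sets (7.52% higher and 7.6% lower). Leaving out wild-type replicate 4 gave a count of 3, and leaving out replicate 5 gave 10. The share over all probe sets is not given for these settings. The wild-type and double knockout values overlapped for all 36 members, where 3.9% of all probe sets did not overlap (1.75% higher and 2.15% lower in the double knockout). The double knockout mean was higher for 15 members and lower for 21 (58.3% lower, against 51.5% of all probe sets), and the median difference was -0.02, beside -0.003 over all probe sets. Without the 4 arrays with the highest levels of pancreas genes, described further on, 29 of 36 means were lower (80.6%). The median over all probe sets was then -0.0005, and their share with a lower mean is not given here. This setting drops wild-type replicates 4 and 5 and double knockout replicates 1 and 2, and was added after the data were seen. With the mean of pancreas genes as a covariate 22 means were lower. For 32 of the 36 members the 95% interval of the difference lay within 0.5 log2 units of 0 on either side; the exceptions were Gbp7, Ifit1, Irgm2 and Mx2, and over all members the intervals reached no further than -0.62 and 0.55.

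**Figure D1:**
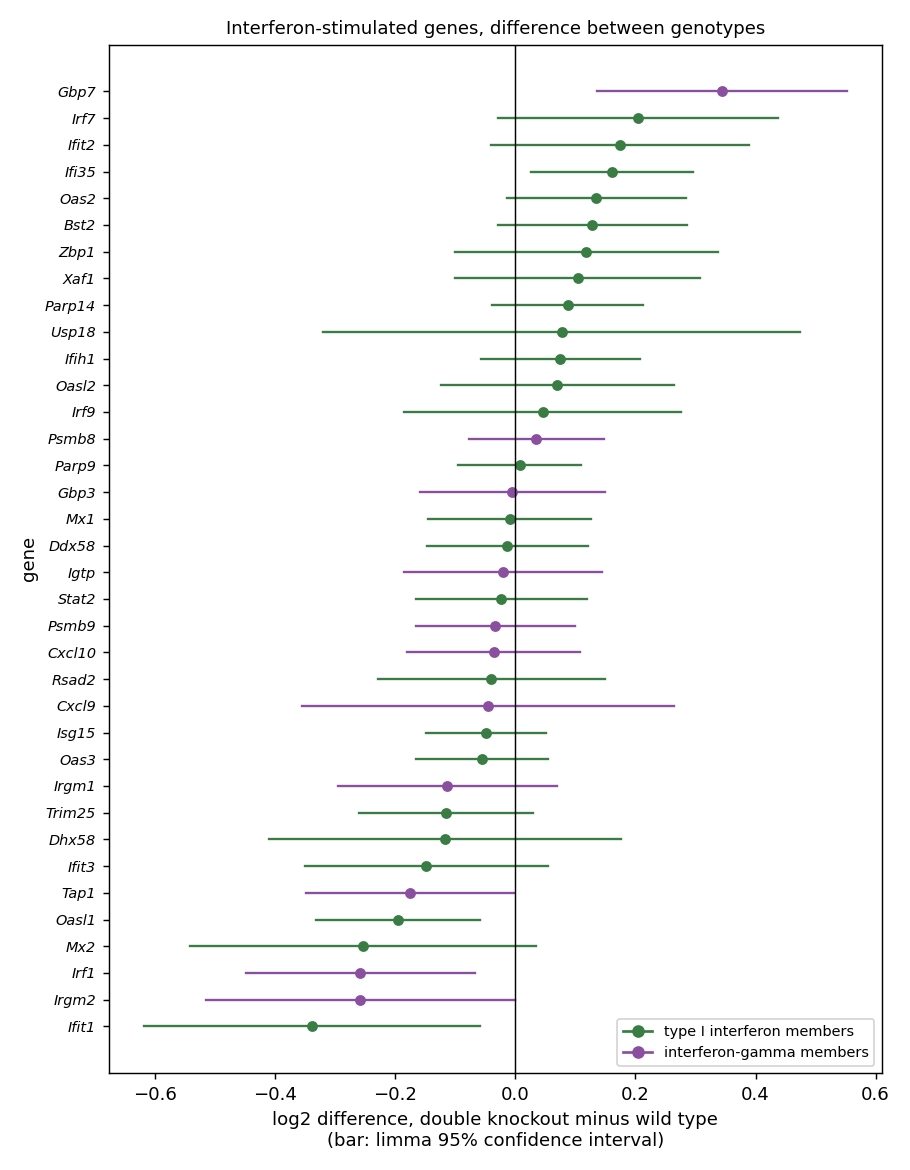
Difference in log2 level (double knockout minus wild type, horizontal axis) of each of the 36 members with a probe set of its own, type I targets and interferon-gamma targets apart; points are differences and bars their 95% intervals from limma (5 arrays per group). Gbp7, Irf7 and Ifit2 stand at the high end and Ifit1, Irgm2 and Irf1 at the low end, with 32 of 36 intervals inside the band from -0.5 to 0.5.

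The 2 classes were described apart. Among the 25 type I targets 13 means were higher and 12 lower in the double knockout, with differences from -0.34 to 0.20 and a median of 0.01. Of these 25, 3 had an unadjusted p under 0.05 (12%, against 15.1% of all probe sets). Among the 11 interferon-gamma targets 2 means were higher, those of Gbp7 and Psmb8, and 9 were lower (81.8%, against 51.5% of all probe sets). Their differences ran from -0.26 to 0.34 with a median of -0.04. Of these 11, Gbp7, Irf1, Irgm2 and Tap1 had an unadjusted p under 0.05 (36.4%, against 15.1% of all probe sets). Among 30 other interferon-gamma targets and antigen presentation genes, described further on, the shares were 13.3% at that p and 50% lower. Without the same 4 arrays the interferon-gamma median was -0.17 and the type I median -0.07, and with the mean of macrophage markers as a covariate they were -0.11 and -0.0031.

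The factors that carry the signal came first. Irf9, the DNA-binding subunit of ISGF3, stood at 9.24, 9.01, 9.10, 9.00 and 8.57 in wild-type replicates 1 to 5 and at 8.98, 9.19, 9.07, 8.87 and 9.04 in the double knockout ones. Wild-type replicate 5 was the lowest of the 10 arrays and the other values were mixed between the groups. The means were 8.99 ± 0.25 (SD, n = 5) and 9.03 ± 0.12 (SD, n = 5), a difference of 0.05 (SE 0.11, limma adjusted p = 0.895). Stat2, which binds Irf9 in ISGF3, read 9.75, 9.67, 9.58, 9.44 and 9.42 in wild-type and 9.62, 9.51, 9.50, 9.51 and 9.58 in double knockout arrays. The double knockout values of Stat2 lay inside the wild-type range, with a difference of -0.02 (SE 0.07, limma adjusted p = 0.916). Neither sign is firm: when the macrophage marker mean entered as a covariate the difference of Stat2 was 0.11, and without wild-type replicate 5 that of Irf9 was -0.06.

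Irf7, the factor that amplifies interferon-alpha production, was at 8.40, 8.05, 8.16, 8.28 and 7.83 in wild-type and at 8.08, 8.44, 8.44, 8.50 and 8.27 in double knockout arrays. In the double knockout 3 arrays stood above every wild-type array, and the other 2 lay among them. Its difference of 0.20 (SE 0.11, 95% interval -0.03 to 0.44) was the highest among type I targets and did not pass the test (limma adjusted p = 0.401). It was 0.12 without wild-type replicate 5. Irf1, the early factor of the interferon-gamma response whose promoter holds the GAS element printed above, was at 8.46, 8.47, 8.47, 8.52 and 8.19 in wild-type and at 8.12, 8.39, 8.23, 8.19 and 7.90 in double knockout arrays. Apart from wild-type replicate 5, each wild-type value of Irf1 lay above every double knockout value. The means were 8.42 ± 0.13 (SD, n = 5) and 8.17 ± 0.18 (SD, n = 5), and the difference of -0.26 (SE 0.09, 95% interval -0.45 to -0.07) had an adjusted p of 0.187 in limma. Irf1 and Irf7 thus stood on opposite sides of 0, neither past the threshold, and whether they differ from each other was not tested.

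The negative regulators and ubiquitin-like genes included the member with the widest spread. Usp18, the protease that removes Isg15 from proteins and blocks signalling at Ifnar2, read 9.28, 8.82, 9.01, 8.96 and 8.03 in wild-type and 8.84, 9.07, 8.95, 8.73 and 8.88 in double knockout arrays. Wild-type replicate 5 stood far below the next lowest array, and the wild-type SD was 0.47 against 0.13 in the double knockout. The difference was 0.08 (SE 0.18, 95% interval -0.32 to 0.47, limma adjusted p = 0.895), and -0.12 without that array. Isg15, the ubiquitin-like protein itself, lay between 6.62 and 6.76 in wild type and between 6.55 and 6.72 in double knockout livers, only a little above the level of 6.54 used here as a guide to background. That guide is the 95th percentile of the 1108 olfactory receptor probe sets, genes with no known use in liver, and 32 of the 36 members had a mean above it. Isg15 differed by -0.05 (95% interval -0.15 to 0.05), and Trim25, the ubiquitin ligase of the RIG-I pathway, by -0.12 (95% interval -0.26 to 0.03).

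The sensors of viral RNA and DNA among the members had small differences. Ifih1 (MDA5), which senses long double-stranded RNA, differed by 0.07 (95% interval -0.06 to 0.21), and Ddx58 (RIG-I), which senses short RNA ends, by -0.01 (95% interval -0.15 to 0.12). Dhx58 (LGP2), the third member of that family, spread more, from 7.71 to 8.46 in wild type and from 7.85 to 8.31 in the double knockout, and differed by -0.12 (95% interval -0.41 to 0.18). Zbp1, a sensor of Z-form nucleic acids, differed by 0.12 (95% interval -0.10 to 0.34), with double knockout replicate 2 at 7.99 and the other 4 between 7.53 and 7.62. The intervals of Ifih1 and Ddx58 allow changes of at most 0.21 in either direction.

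The Ifit proteins bind viral RNA and block its translation. Ifit1, with 2 ISRE cores in its promoter, was at 8.22, 7.66, 8.04, 8.05 and 7.43 in wild-type and at 7.47, 7.71, 7.57, 7.51 and 7.45 in double knockout arrays. The wild-type arrays fell into 3 above 8 and 2 within or just below the double knockout range, and the double knockout arrays lay close together. Its difference of -0.34 (SE 0.13, 95% interval -0.62 to -0.06) was the lowest of all members, a mean at 0.791 of wild type, with a limma adjusted p of 0.236. Ifit3 differed by -0.15 (95% interval -0.35 to 0.05), and Ifit2, at background level, by 0.17 (95% interval -0.04 to 0.39). The Ifit genes of the list therefore had means on both sides of 0.

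The Oas and Oasl genes encode synthases of 2-5A, the messenger that activates RNase L, and relatives of them. Oasl1, which restrains the translation of Irf7, was at 7.87, 7.84, 7.74, 7.78 and 7.52 in wild-type and at 7.61, 7.51, 7.53, 7.60 and 7.53 in double knockout arrays. Here again wild-type replicate 5 alone stood within the double knockout values, and the other 4 lay above them all. The difference of -0.20 (SE 0.06, 95% interval -0.33 to -0.06) had a limma adjusted p of 0.165; without wild-type replicate 5 it was -0.25 with an adjusted p of 0.0311, the only call of a member in any setting run. Oas2 read 6.85, 7.02, 6.97, 6.89 and 6.73 in wild-type and 7.18, 7.09, 7.04, 6.87 and 6.96 in double knockout arrays, a difference of 0.13 (SE 0.07, limma adjusted p = 0.383), and 0.01 without the 4 arrays of highest pancreas levels. Oasl2 differed by 0.07 and Oas3 by -0.06, and the probe set shared by Oas1a and Oas1g by 0.01, so that members of the family lay on both sides of 0.

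Among the other antiviral effectors Mx2, a dynamin-like GTPase, was at 7.09, 6.64, 6.50, 6.40 and 6.21 in wild-type and at 6.36, 6.45, 6.20, 6.19 and 6.38 in double knockout arrays. Wild-type replicate 1 stood well above the other 9 arrays, and all arrays but wild-type replicates 1 and 2 were below the background guide. The difference was -0.25 (SE 0.13, limma adjusted p = 0.398), -0.12 without wild-type replicate 1 and -0.49 without the 4 arrays of highest pancreas levels. Mx1, at a mean of 4.90 ± 0.12 (SD, n = 5) in wild type, was below the guide in every array. Rsad2 (viperin), which makes a chain-terminating nucleotide, lay between 7.63 and 8.18 in wild type and between 7.78 and 7.99 in the double knockout, a difference of -0.04 (95% interval -0.23 to 0.15).

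Ifi35, which pairs with Nmi, was the other member with an unadjusted p under 0.05 and a higher mean. Its values were 9.24, 9.23, 9.10, 9.03 and 9.17 in wild-type and 9.25, 9.16, 9.40, 9.33 and 9.43 in double knockout arrays. In the double knockout 4 arrays stood above every wild-type array, 1 of them barely, and replicate 2 lay among them, with a difference of 0.16 (SE 0.06, 95% interval 0.03 to 0.30, limma adjusted p = 0.244). A second Ifi35 probe set, the only second one among the members, differed by -0.05. Bst2 (tetherin), which holds budding virus at the cell surface, differed by 0.13 (95% interval -0.03 to 0.29), and Xaf1, a pro-apoptotic protein, by 0.10 (95% interval -0.10 to 0.31). The ADP-ribosyltransferase family members Parp9 and Parp14 differed by 0.01 and 0.09, and the probe set shared by Parp9 and its ubiquitin-ligase partner Dtx3l by -0.10 (95% interval -0.23 to 0.03).

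**Figure D2:**
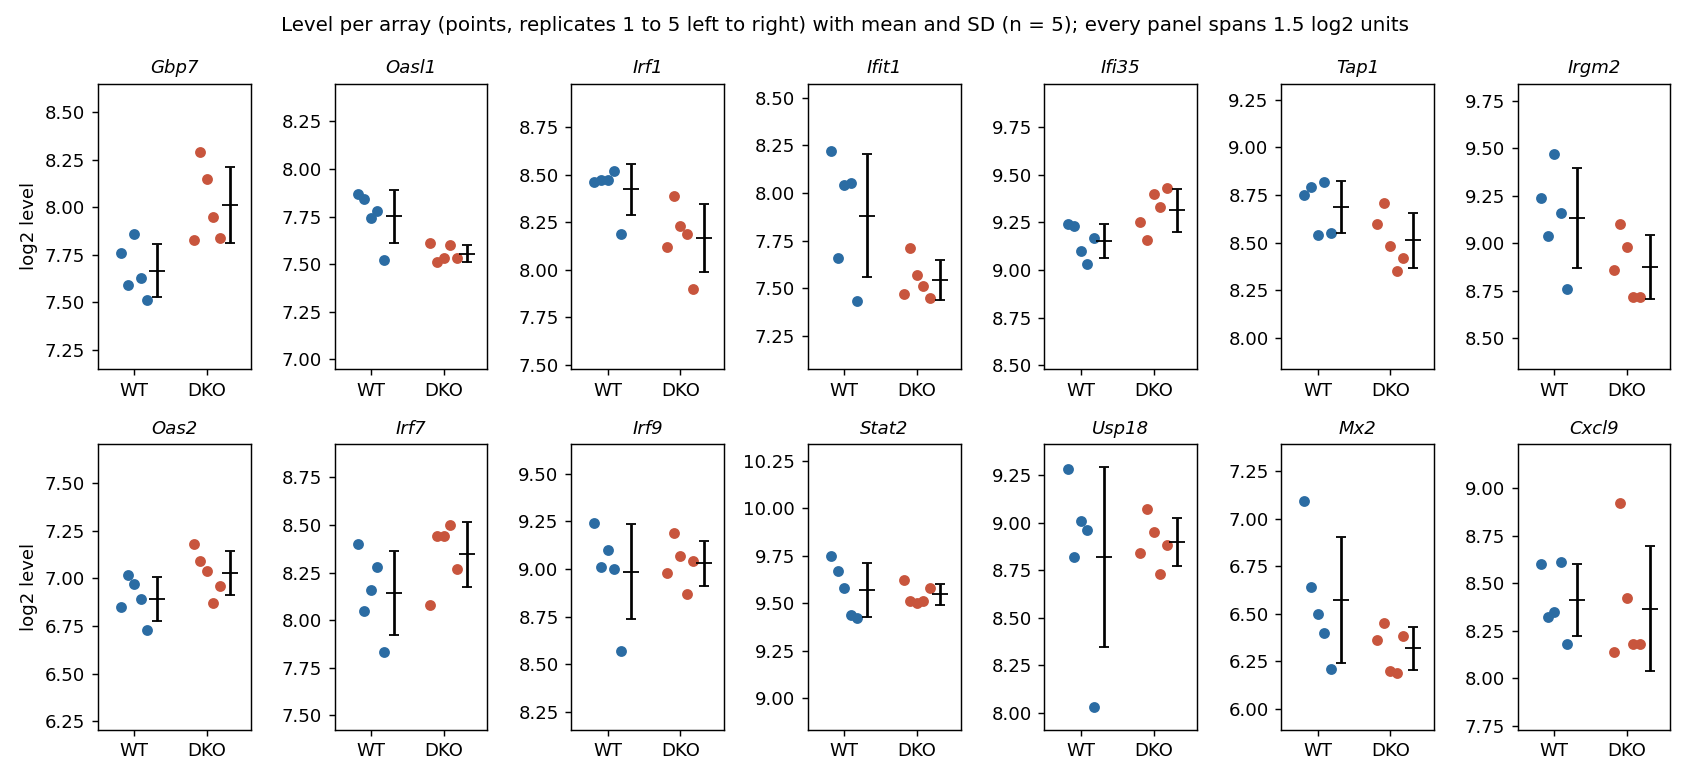
Log2 level of each of the 14 members described with the value in every array, 1 panel each, wild type on the left and double knockout on the right; points are arrays, replicates 1 to 5 from left to right within a group, bars beside them give mean ± SD (n = 5), and every panel spans 1.5 log2 units. The groups overlap in all 14 panels, and wild-type replicate 5 is the low point of Usp18 (8.03), Irf9 (8.57) and Ifit1 (7.43).

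The interferon-gamma targets include GTPases that attack vacuoles holding microbes. Gbp7, a guanylate-binding protein with 1 ISRE core and 2 GAS matches before its start, was at 7.76, 7.59, 7.86, 7.63 and 7.51 in wild-type and at 7.83, 8.29, 8.15, 7.95 and 7.84 in double knockout arrays. Each of the double knockout values lay above 4 of the 5 wild-type values, and wild-type replicate 3, at 7.86, stood above 2 of them. The means were 7.67 ± 0.14 (SD, n = 5) and 8.01 ± 0.20 (SD, n = 5), a difference of 0.34 (SE 0.10, 95% interval 0.14 to 0.55), or 1.27-fold, with the lowest adjusted p among the members (0.118 in limma). Gbp3, at background level, differed by -0.00, and the probe set shared by Gbp2 and Gbp2b by -0.07 (limma adjusted p = 0.627), so Gbp7 stood apart from the other guanylate-binding proteins of the list in its value; that contrast was not tested.

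Irgm2, Irgm1 and Igtp (Irgm3) are immunity-related GTPases that regulate the vacuole-attacking members of their own family. Irgm2 was at 9.24, 9.04, 9.47, 9.16 and 8.76 in wild-type and at 8.86, 9.10, 8.98, 8.72 and 8.72 in double knockout arrays. In wild type 3 arrays lay above every double knockout array and replicate 5 among the lowest, with a difference of -0.26 (SE 0.12, limma adjusted p = 0.328). Igtp, whose promoter shares the arrangement printed for Irgm2, differed by -0.02 (95% interval -0.19 to 0.14), and Irgm1 by -0.11 (95% interval -0.30 to 0.07).

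Genes of antigen processing and the chemokines complete the class. Tap1, 1 chain of the transporter that carries peptides into the endoplasmic reticulum, was at 8.75, 8.79, 8.54, 8.82 and 8.55 in wild-type and at 8.60, 8.71, 8.48, 8.35 and 8.42 in double knockout arrays. The higher 3 wild-type values lay above all double knockout ones, and the difference was -0.18 (SE 0.08, limma adjusted p = 0.325). The immunoproteasome subunits Psmb8 and Psmb9 differed by 0.04 (95% interval -0.08 to 0.15) and -0.03 (95% interval -0.17 to 0.10). Cxcl9, a chemokine that draws T cells, was at 8.60, 8.32, 8.35, 8.61 and 8.18 in wild-type and at 8.14, 8.92, 8.42, 8.18 and 8.18 in double knockout arrays. Double knockout replicate 2 was the highest array for Cxcl9 and double knockout replicate 1 the lowest, with a difference of -0.05 (SE 0.14, limma adjusted p = 0.925) whose sign turned when any of several single arrays was left out, and the related Cxcl10 differed by -0.04 (95% interval -0.18 to 0.11).

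Arrays were then compared across the members, with the group mean of each gene subtracted so that genotype does not enter. Over the 630 pairs of members the median correlation across the 10 arrays was 0.36, and 34.4% of pairs had r above 0.5. Among the 14078 probe sets above the background guide the median was 0.008 and 9.63% of pairs were above 0.5. The median was 0.34 within the type I class (300 pairs), 0.46 within the interferon-gamma class (55 pairs) and 0.36 between the classes (275 pairs), so pairs across the classes were as high as pairs within the type I class. The median was 0.44 over the wild-type arrays alone and 0.32 over the double knockout arrays alone. These correlations share the same 10 arrays and describe them; genes are not independent replicates.

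**Figure D3:**
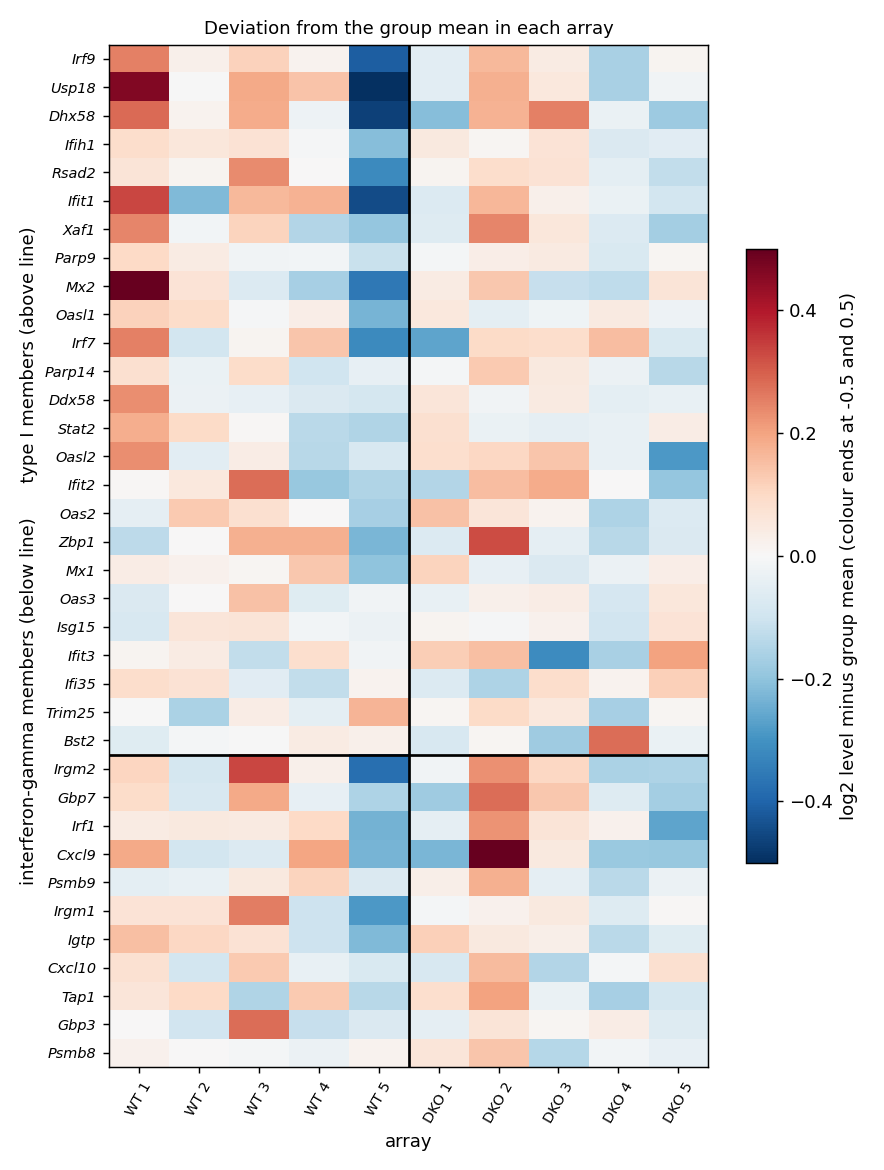
Deviation of each member from its mean over the 5 arrays of the same group (colour, log2 units), with members as horizontal lines of cells, type I targets above the line and interferon-gamma targets below it, and the 10 arrays as columns. The column of wild-type replicate 5 is mostly negative, with Trim25 an exception, and the most positive cells lie in wild-type replicates 1 and 3 and double knockout replicate 2.

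Several type I targets followed the mean of their class, though for many of them the value rested on wild-type replicate 5. Irf9 correlated at 0.97 with the mean of the other type I targets, Usp18 at 0.94, Dhx58 at 0.89, Ifih1 at 0.88, Rsad2 at 0.86, Ifit1 at 0.85, and Xaf1 and Parp9 at 0.84. Among the interferon-gamma targets Irgm2 correlated with the same mean at 0.87, Igtp at 0.83 and Irgm1 at 0.81. In all, 8 of 25 type I and 3 of 11 interferon-gamma targets had r above 0.8 with it, against 1.06% of the probe sets above the guide. Without wild-type replicate 5 there were 4 type I targets (Xaf1 at 0.95, Irf9 at 0.91, Usp18 at 0.87 and Parp14 at 0.86) and 0 interferon-gamma targets above 0.8, against 0.703% of the probe sets. Without that array Dhx58 stood at 0.73, Parp9 at 0.66, Ifit1 at 0.63, Ifih1 at 0.61 and Rsad2 at 0.60, and Irgm2, Igtp and Irgm1 at 0.75, 0.65 and 0.49. At the other end were Bst2 at -0.35, Trim25 at -0.21, Ifi35 at -0.16, Ifit3 at -0.07 and Isg15 at 0.02. Without wild-type replicate 5 Trim25 was at 0.67, and Oasl1 turned from 0.66 to -0.18, while Bst2 was at -0.48 and Ifi35 at -0.19.

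Single pairs showed the same range. The closest was Irf9 with Usp18 (r = 0.97, and 0.93 without wild-type replicate 5), followed by Rsad2 with Irgm2 (r = 0.95), Ifit1 with Usp18, Xaf1 with Parp14 and Ifih1 with Igtp (each r = 0.91). Irgm1 and Irgm2 correlated at 0.81 and Irgm2 and Igtp at 0.67 (0.62 and 0.40 without that array), and Gbp3 and Gbp7 at 0.68. Psmb9 and Tap1, whose starts lie head to head 226 bases apart, correlated at 0.68. Ifit1 and Ifit3, which are relatives, gave r = -0.02. The lowest pair was Ifi35 with Psmb9 at -0.80.

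**Figure D4:**
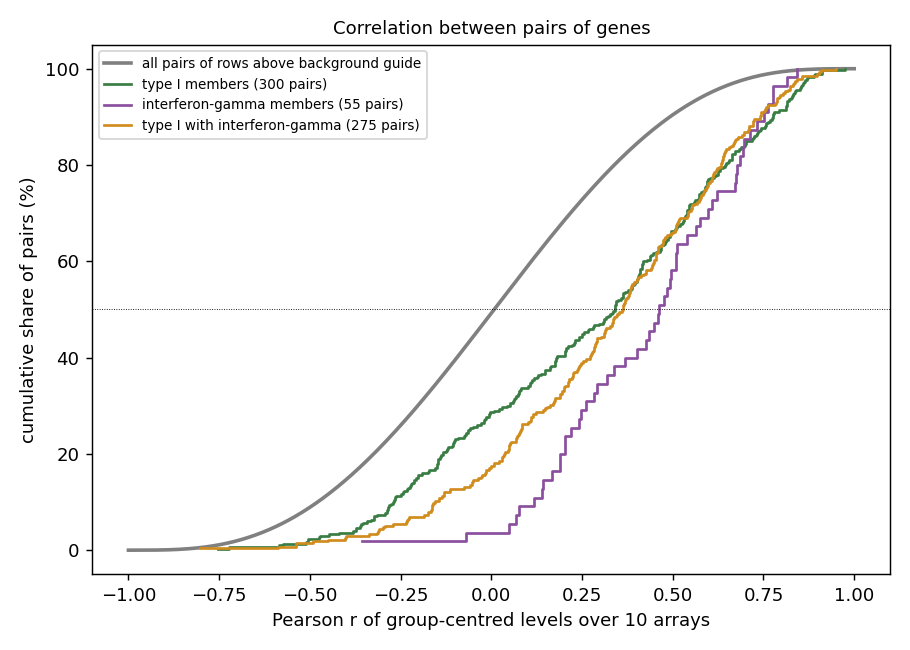
Cumulative share of pairs (vertical axis, percent of pairs at or below a value) by correlation across the 10 arrays after subtracting group means (horizontal axis) for member pairs within the type I class, within the interferon-gamma class and between the classes, and for all pairs of probe sets above the background guide. The member curves are shifted to the right, with medians of 0.34, 0.46 and 0.36 against 0.008.

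Part of this covariation lay in 1 array. Wild-type replicate 5 was the lowest of the 10 arrays for 17 of 36 members (47.2%), 14 of them type I targets, and for 11.3% of the probe sets above the guide. Wild-type replicate 1 was the highest for 11 members and double knockout replicate 4 the lowest for 7. Without wild-type replicate 5 the median pair correlation of members was 0.23 with 26% of pairs above 0.5, beside 0.004 and 11.2% for the probe sets above the guide. Wild-type replicate 5 was also the array with the highest mean of 9 pancreas genes, 10.01, where wild-type replicate 4 had 8.97, double knockout replicates 2 and 1 had 8.21 and 7.95, and the other 6 arrays were between 5.82 and 6.43. Without these 4 arrays the median pair correlation of members was 0.13 with 27.6% of pairs above 0.5, beside 0.006 and 20.4% for probe sets above the guide; this setting was added after the data were seen. The difference of Irgm2 was then -0.45 and that of Tap1 -0.27. With the pancreas mean as a covariate over all 10 arrays, a planned setting, the median pair correlation of members was 0.36. In that fit Irgm2 differed by -0.28 and Tap1 by -0.17. Whether pancreatic tissue in the samples has a part in the low member levels of wild-type replicate 5 was not tested.

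The mean over the type I targets was 8.07, 7.94, 8.01, 7.93 and 7.74 in wild-type replicates 1 to 5 and 7.92, 8.02, 7.96, 7.89 and 7.90 in the double knockout ones. The group means were 7.94 ± 0.12 and 7.94 ± 0.05 (SD, n = 5 each). For the interferon-gamma targets the group means were 7.87 ± 0.10 and 7.82 ± 0.11 (SD, n = 5 each), with single arrays of both groups between 7.70 and 8.01. After subtracting group means the 2 class means correlated at r = 0.88 (rho = 0.92, 10 arrays), and at r = 0.95 without wild-type replicates 1 and 5, the arrays farthest from the median. The type I mean correlated with the pancreas mean at r = -0.58 (rho = -0.56), and at 0.06 without those arrays, so that relation rests on them. With the mean of 15 Kupffer cell and macrophage markers it correlated at r = 0.14 (rho = 0.12), and at 0.45 without those arrays. With the means of neutrophil and plasmacytoid dendritic cell markers it correlated at r = -0.61 (rho = -0.58) and -0.53 (rho = -0.53), and at -0.29 and 0.14 without them. The second list holds Klk1, which was high in the same arrays as the pancreas genes. Conventional dendritic cell markers gave r = -0.51 (rho = -0.25), and 0.56 without wild-type replicates 1 and 5. For T and NK cell markers these values were -0.01 (rho = 0.04) and 0.65, and for hepatocyte markers 0.22 (rho = 0.21) and 0.55. For B and plasma cell markers they were -0.39 (rho = -0.56) and -0.39, and for sinusoidal endothelial markers 0.10 (rho = -0.09) and -0.04. Of the T and NK cell markers 10 of 13 lay at or below the guide. The interferon-gamma mean correlated with the macrophage mean at r = 0.52 (rho = 0.47), and at 0.07 without double knockout replicate 2 and wild-type replicate 5.

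**Figure D5:**
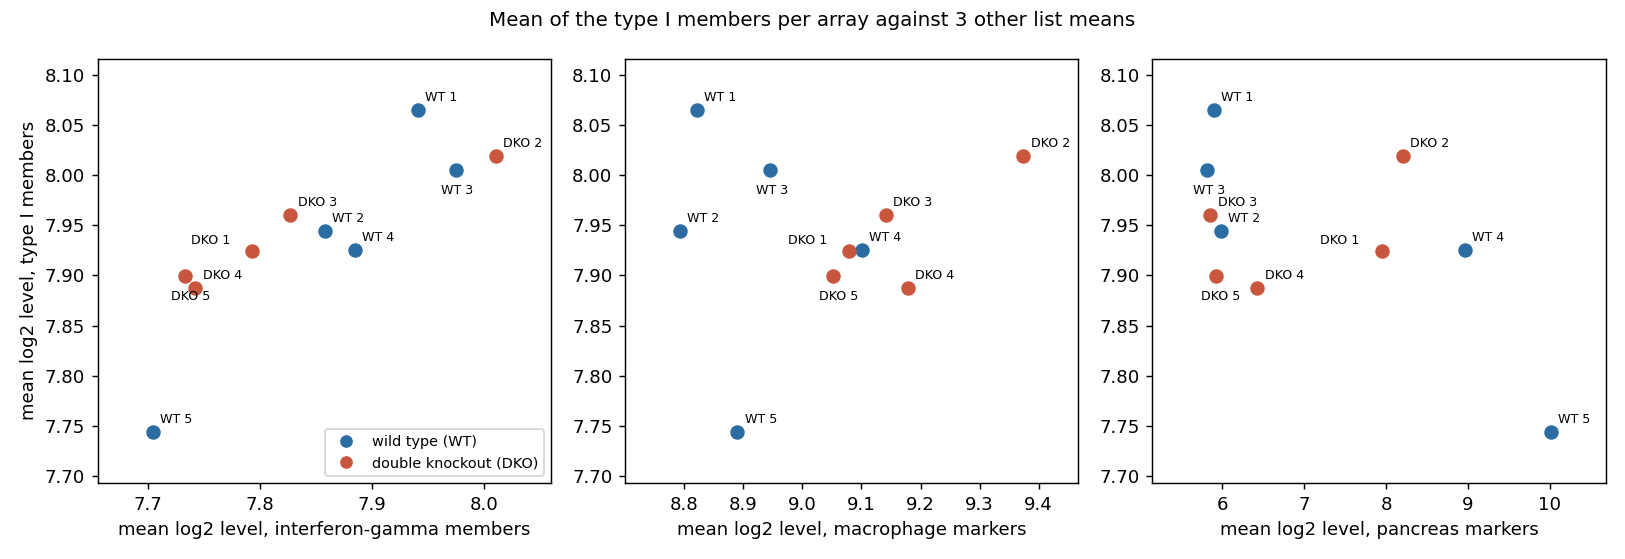
Mean log2 level of the 25 type I members in each array (vertical axis) against the mean of the 11 interferon-gamma members, of 15 macrophage markers and of 9 pancreas markers in the same array (horizontal axes); each point is 1 array, labelled by group and replicate. Wild-type replicate 5 has the lowest type I mean (7.74) and the highest pancreas mean (10.01), and the relation of the 2 classes runs through both groups.

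The macrophage markers stood higher in the double knockout. All 15 of 15 had a higher mean in the double knockout, where 51.5% of all probe sets had a lower one. Of the 15, 2 passed the test (Cd163 by 0.44 and Marco by 0.61), where 0.332% of all probe sets were called higher. An unadjusted limma p under 0.05 was found for 10 (66.7%, against 15.1% of all probe sets). The groups did not overlap for 4 of them, and for 3.9% of all probe sets. The list mean lay between 8.79 and 9.10 in wild type and between 9.05 and 9.37 in double knockout livers. In whole liver RNA, a change in the number of cells of a type and a change in RNA per cell cannot be told apart. The macrophage mean was itself 0.25 higher in the double knockout, so a fit with it as a covariate cannot separate genotype from macrophage level. Its differences are also less precise: the SE of Usp18, for example, went from 0.18 to 0.29. With the macrophage mean as a covariate 0 of 36 members were called by limma, and the median pair correlation of members was 0.42. The differences closer to 0 with that covariate included Gbp7 at 0.15, Irf7 at 0.05 and Mx2 at -0.12. Those farther from 0 included Cxcl9 at -0.43, Irf1 at -0.45, Irgm2 at -0.44, Ifit1 at -0.53, Tap1 at -0.28 and Ifi35 at 0.33. Markers of T and NK cells, B and plasma cells, neutrophils, dendritic cells and sinusoidal endothelium had 0 calls in each list by limma. An unadjusted p under 0.05 was found for 2 of 13, 1 of 7, 1 of 8, 1 of 13 and 1 of 7 genes, where 15.1% of all probe sets had one.

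The ligands upstream of the members gave no call. Of 21 interferon genes 19 had a probe set of their own, 12 of these at or below the background guide, and 0 were called by limma, with 0 at an unadjusted p under 0.05 and differences from -0.10 to 0.13. Ifng differed by -0.01 and Ifnb1 by -0.04. Of the 6 receptor chains 0 were called, with 0 at an unadjusted p under 0.05: Ifnar1 differed by 0.07, Ifnar2 by 0.04, Ifngr1 by 0.09 and Ifngr2 by -0.06. Of 10 genes of the JAK-STAT relay 0 were called and 3 had an unadjusted p under 0.05 (30%, against 15.1% of all probe sets). In this list 2 means were higher and 8 lower (80%, against 51.5% of all probe sets). The lowest p-values were those of Ptpn11, a phosphatase, at 0.15 (limma adjusted p = 0.133) and Jak2, a kinase of the interferon-gamma receptor, at -0.17 (limma adjusted p = 0.200).

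Among 16 sensors, adaptors and kinases that lead to interferon production, Ikbke rose in the double knockout and the other 15 did not pass the test. Of all probe sets 0.884% were called (0.332% higher). Ikbke encodes IKK-epsilon, the kinase that with Tbk1 phosphorylates Irf3 and Irf7. Its levels were 8.42, 8.49, 8.41, 8.54 and 8.45 in wild-type and 9.04, 8.91, 8.73, 8.94 and 8.66 in double knockout arrays. Every double knockout array lay above every wild-type array, and the difference was 0.39 (SE 0.07, 95% interval 0.24 to 0.54, limma adjusted p = 0.0243). The call was lost without wild-type replicates 2 or 3 or double knockout replicates 2 or 4, with differences from 0.35 to 0.44 when any 1 array was left out and a highest adjusted p of 0.0699. With the macrophage mean, which itself differs between genotypes, as a covariate the difference was 0.32 (SE 0.10, limma adjusted p = 0.291). Of the 16 genes 13 had a higher mean in the double knockout and 3 a lower one (18.8%, against 51.5% of all probe sets). An unadjusted limma p under 0.05 was found for 3 of the 16 (18.8%, against 15.1% of all probe sets). Tbk1 differed by 0.03, Irf3 by -0.07 and Tlr7, a sensor of single-stranded RNA, by 0.27 (limma adjusted p = 0.0877).

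Further targets outside the 40 were read for comparison, and 0 were called. Of 39 other type I targets 20 had higher and 19 lower means, with 5 at an unadjusted p under 0.05 (12.8%, against 15.1% of all probe sets). Herc6, the mouse ligase that attaches Isg15, was at 8.52, 8.05, 8.16, 8.49 and 8.18 in wild-type and at 8.66, 9.06, 8.78, 8.62 and 8.66 in double knockout arrays. Its groups did not overlap, and the difference of 0.48 (SE 0.11) had a limma adjusted p of 0.0632. Ifitm3, which blocks virus entry, differed by 0.23 (limma adjusted p = 0.187). Of 30 other interferon-gamma targets and antigen presentation genes 15 had higher and 15 lower means. An unadjusted p under 0.05 was found for 4 (13.3%, below the share over all probe sets), all lower. Cxcl11, a chemokine of the same receptor as Cxcl9 and Cxcl10, was at 8.28, 8.51, 8.28, 8.42 and 8.21 in wild-type and at 7.95, 7.81, 8.24, 7.76 and 7.89 in double knockout arrays. Apart from double knockout replicate 3 these values did not overlap, and the difference of -0.41 (SE 0.09) had a limma adjusted p of 0.0557. Nlrc5, the activator of class I antigen presentation genes, differed by -0.20 (limma adjusted p = 0.177).

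Members were left out of these rankings, though Irf9 and Usp18 correlated at 0.97 and 0.94 with the mean of the other type I targets. Among other probe sets above the background guide, 8 genes were most like the type I mean over the 10 arrays, after subtracting group means. Of these 8 genes 1, Oas1b, is a listed interferon target. They were Oas1b (r = 0.95), Amt, a glycine cleavage enzyme (0.95), Zfp263 (0.93), Insig1, which restrains SREBP processing (0.92), Letm1, a protein of the inner mitochondrial membrane (0.92), Msmo1, an enzyme of sterol synthesis (0.92), Fga, a fibrinogen chain (0.91), and Bbox1, an enzyme of carnitine synthesis (0.91). Most like the interferon-gamma mean were Garnl3 (0.94), Slc25a1, the mitochondrial citrate carrier (0.94), Asah1, the acid ceramidase (0.93), and Dus1l (0.93). For each of the 8 genes most like the type I mean, wild-type replicate 5 was the lowest wild-type array. Their r without that array is not given here. Among the wild-type arrays the Insig1 probe set, like Irf9 and Usp18, was lowest in replicate 5 (10.86) and highest in replicate 1 (11.77). Bbox1 was itself called lower in the double knockout, with a difference of -0.28 (limma adjusted p = 0.0212) and no overlap.

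Values of the whole data set bear on these results in a few places. Median levels of the 10 arrays lay between 6.43 and 6.46 and correlations between arrays between 0.989 and 0.995, with 0 pairs of identical arrays. The Macroh2a1 probe set went from 9.60 ± 0.07 (SD, n = 5) to 9.11 ± 0.07 (SD, n = 5), a fall by 0.49 (SE 0.05, limma adjusted p = 0.00128) without overlap. Its double knockout level, at 0.71 of wild type, was still above the background guide, so the signal was lower and not absent. The Macroh2a2 probe set, with a mean of 6.22 below the background guide, differed by -0.20 (limma adjusted p = 0.514). All 8 hepatocyte markers read were above the guide, with 0 called and 0 at an unadjusted p under 0.05 in limma.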

How the data were processed

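RNA of 10 liver samples (5 wild type, 5 double knockout) was measured on Affymetrix arrays. Per the labels' protocols, total RNA was extracted with Trizol and biotin-labelled with the Ambion WT Expression Kit. The authors deposited log2 levels of probe sets; the submitters' processing notes name Affymetrix Expression Console, and its version, the summarisation algorithm and the genome build are not stated in those sources. Scanner files, and with them background, saturation and scan batches, were not analysed here.

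Gene symbols came from GEO's platform annotation: of 41345, 23521 had 1 symbol, 1814 several and 16010 none. The 25335 with a symbol were fitted in limma 3.58.1 (R 4.3.3, lmFit and eBayes, two-sided, group as the only term, no filter) and adjusted by Benjamini-Hochberg over all of them; a call is an adjusted p under 0.05. Intervals are moderated 95% intervals. The number of arrays limits the precision. Correlations across arrays used values minus the group mean and carry no p. The fit was tested on simulated data.

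The members, the other gene lists and the tests were chosen with earlier results of these data known. Values in every array are given for called members, the 8 members of lowest p, Irf1, Irf7, Irf9 and Stat2, and the 4 with the widest range within a group. Of each other pathway list, called genes or else the 2 of lowest p were named, with Ifnar1, Ifnar2, Ifngr1 and Ifngr2 and the interferon genes. Also named were the 8 and 4 probe sets above the background guide most like the class means, members and predicted genes left out. Dhx58, Isg15, Rsad2, Zbp1, Tlr7, Tbk1 and Irf3 were also given values, chosen after their values were seen. Other members are given by their differences. Alternatives were an intensity trend, the robust option, array weights, median centring, a second quantile normalization and a filter on low levels. Others were all rows, a macrophage or a pancreas covariate, a replicate block, another threshold and leaving out each array.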

Additional observations from a re-analysis of the deposited data

Results flagged for a closer look

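In 4 of 80 groups of 5 arrays (39 member probe sets and Ikbke, 2 groups each) the highest or lowest array stood off by more than 0.71 of the group's range, Dixon's 95% critical value, which chance gives in about 1 in 20 groups. Ddx58 was at 9.58 in wild-type replicate 1, with the nearest other wild-type array at 9.32. Zbp1 was at 7.99 in double knockout replicate 2, with the nearest at 7.62. Irf1 was at 8.19 in wild-type replicate 5, with the nearest at 8.46. The probe set of Gbp2 and Gbp2b was at 6.54 in double knockout replicate 1, with the nearest at 6.74.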

How the results depend on the processing

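The count of 0 members called held under every alternative run except leaving out wild-type replicate 5, where Oasl1 was called; over the arrays left out in turn the count was 0 to 1. The filter on low levels left 32 members. Over all probe sets the count of 224 was 585 at an adjusted p under 0.10, 75 with all rows tested, 377 with the filter, 14 with the macrophage covariate, 76 with the replicate block and 68 without the 4 arrays of highest pancreas mean (added after the data were seen), and 64 to 253 without 1 array. The interferon-gamma median of -0.04 was -0.17 without those 4 arrays, -0.11 with the macrophage covariate, and -0.08 to -0.01 without 1 array. With the pancreas mean as a covariate it was -0.04. The type I median stayed within -0.06 to 0.04 without 1 array. The median pair correlation of 0.36 was 0.42 with the macrophage covariate, 0.13 without those 4 arrays and 0.23 to 0.40 without 1 array. With the pancreas covariate it stayed at 0.36. Members with a lower mean, 21 of 36, were 17 to 24 without 1 array, 29 without those 4 arrays and 22 with the pancreas covariate. Signs turned for Irf9 (-0.0031 with the macrophage covariate, -0.12 without the 4 arrays), Stat2 (0.11 with the covariate) and Usp18 (-0.024 and -0.18). Without 1 array Irf9 ran from -0.057 to 0.11, Stat2 from -0.061 to 0.022, Usp18 from -0.12 to 0.19 and Cxcl9 from -0.18 to 0.011 (-0.43 with the covariate). Ikbke lost its call also with all rows tested (adjusted p = 0.0624 in limma) and without the 4 arrays (0.34, adjusted p = 0.164). The macrophage mean differs between genotypes, so the fits with that covariate cannot separate genotype from macrophage level. The cause of these changes was not tested. For same-numbered replicates of the 2 genotypes the r of their deviations was -0.48, -0.42, 0.28, -0.15 and -0.19. The deviations also hold other differences between arrays, such as the pancreas levels. They therefore cannot tell whether same-numbered replicates share more than a number. With the replicate block 0 members were called, the lowest limma adjusted p was 0.102 (Irf1), and Ikbke had a limma adjusted p of 0.068.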
